A study of Rattus norvegicus with 32 samples.

Results

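Normal mammary gland of 2 inbred rat strains, F344 and BUF/N, was compared on 10 arrays, the 5 single-sample arrays titled F344 and the 5 titled BUF/N, out of 32 in the series. An array labelled as an F344 pool was left out. The series is titled as a study of inherited susceptibility to mammary cancer among rat strains, and its other arrays are normal mammary gland of the inbred strains Cop, ACI and WF, of F1 hybrids of Cop and F344, and a second pool. All groups used here carry no named allele, transgene or treatment, and they differ by strain alone as far as the labels go. The labels give no age, reproductive stage, time of day or hybridisation batch, and they do not say whether the 5 arrays of a strain came from 5 animals. The p-values measure only the spread between samples within a group, which may be technical. That spread was pooled over all 30 single-sample arrays of the series (6 groups of 5), not over the 10 compared alone. RNA was taken from ground whole tissue, so in every result fewer cells of a type and less RNA per cell cannot be told apart.

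The mammary gland is a branched epithelium embedded in a pad of fat. Its ducts have an inner layer of luminal cells, which turn into milk-secreting cells under prolactin and steroid hormones, and an outer layer of contractile myoepithelial cells. The fat pad supplies lipid and growth factors to the epithelium, and it also holds vessels, fibroblasts, mast cells, macrophages and, at its edge, muscle.

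Each array was an Affymetrix rat array with 8799 probe sets, and the deposited value is a linear signal. After low signals were raised to a floor of 18.3 and dim probe sets were left out, 5039 probe sets were tested with limma on the log2 scale. A probe set is called where its Benjamini-Hochberg adjusted p was under 0.05, and differences are F344 minus BUF/N, so that a positive value is a higher signal in F344. Means are given ± SD with n = 5 arrays per strain. The label mammary gland was checked against epithelial and fat cell genes. Krt8, a luminal keratin, was at 715 ± 78.7 in F344 and 1207 ± 207 in BUF/N, Krt14, a basal keratin, at 748 ± 191 and 1076 ± 365, and Fabp4, of fat cells, at 3849 ± 417 and 2196 ± 625, so both tissues were present in both strains. Of the 5039 probe sets, 1197 (23.8%) were called, 528 (10.5%) higher in F344 and 669 (13.3%) lower, and 1900 (37.7%) had an unadjusted p under 0.05. Calls beyond 2-fold were 175 (3.47%) higher and 165 (3.27%) lower. The 5 signals of one strain did not overlap those of the other for 1299 probe sets (25.8%), and 881 (17.5%) were both called and free of overlap, 387 (7.68%) higher in F344 and 494 (9.80%) lower. The median log2 difference over all tested probe sets was -0.08. Where arrays of a strain lay under the floor, the log2 difference of a gene moves with the floor chosen and is no exact fold.

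The split of the calls depended on how the arrays were scaled. The median signal of an array ran from 68.9 to 77.1 in F344 and from 80.1 to 83.7 in BUF/N, while the trimmed mean that the authors scaled to was 250.3 to 250.4 on every array. F344 had the higher signal in 44.1% of the calls as deposited, in 52.4% (590 of 1127) after quantile normalization and in 55.5% (627 of 1129) after centring each array on its median. BUF/N 3 stood furthest from its own group, with a mean correlation of 0.938 against the other BUF/N arrays and a 3′ to 5′ signal ratio of the Gapdh control probe sets of 1.32, where the 10 arrays ran from 0.91 to 1.32. Without BUF/N 3 the number of calls was 699, and without F344 5 it was 758.

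**Figure D1:**
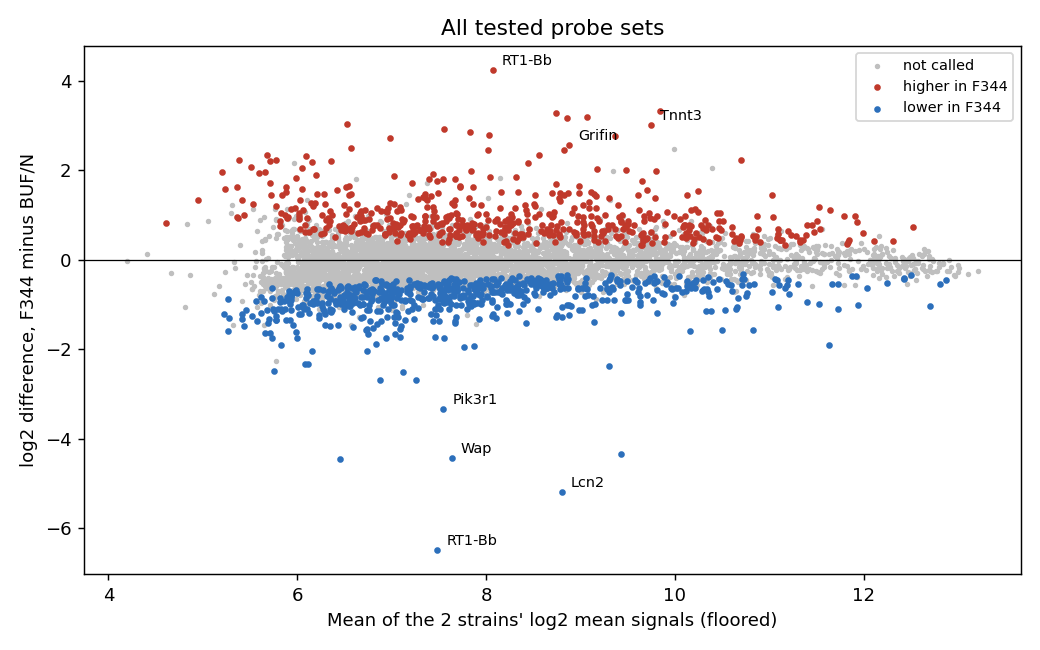
Log2 difference (F344 minus BUF/N) of each of the 5039 tested probe sets against the mean of the strains' log2 mean signals, with signals raised to the floor of 18.3. Red points are called higher in F344 (528), blue points lower (669) and grey points are not called. RT1-Bb lies at both ends, at 4.25 and -6.50.

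Milk protein genes had lower signals in F344. The list holds caseins, whey proteins and proteins of the milk fat globule, and 11 of its 14 genes were tested. All 11 differences were negative, 5 passed the test (45.5%, against 13.3% of all tested probe sets lower in F344), and their median was -0.86. Their summed signal was 10480 to 14330 (median 12880) over the F344 arrays and 17720 to 37580 (median 24710) over the BUF/N arrays, with no overlap. The summed luminal markers moved the same way, 5101 to 7269 (median 6357) over the F344 arrays and 10000 to 14150 (median 11070) over the BUF/N arrays, and their part in this result was not tested. That luminal sum, here and below, includes Lcn2, with means of 72.3 in F344 and 2742 in BUF/N, so a large part of its gap comes from 1 gene.

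Wap, whey acidic protein, showed the widest gap of the list. Its signals were 39.3, 49.4, 33.1, 28.8 and 25.7 in F344 and 787.9, 3379.0, 756.0, 253.2 and 448.5 in BUF/N. The strains' ranges were far apart, and BUF/N 2 stood well above the other BUF/N arrays. The means were 35.3 ± 9.41 and 1125 ± 1280, a log2 difference of -4.44 (SE 0.71, adjusted p 6.90e-05), or 21.7-fold.

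Csn2, beta-casein, read 572.1, 152.8, 33.7, 40.7 and 78.9 in F344 and 3458.3, 4193.5, 4409.0, 502.7 and 1025.4 in BUF/N. F344 1 lay above BUF/N 4, so the ranges overlapped, and within each strain the signal varied widely. The difference was -4.35 (SE 0.96, adjusted p 0.00216). Csn3, kappa-casein, which holds casein micelles in solution, gave 2699.1, 2620.3, 685.7, 1343.6 and 1198.0 in F344 and 4351.3, 7973.8, 7246.2, 4741.0 and 4989.9 in BUF/N, a difference of -1.91 (SE 0.42, adjusted p 0.00205). Every BUF/N array was above every F344 array for this gene. Plin2, which coats lipid droplets, was at 1939 ± 280.0 in F344 and 3782 ± 1010 in BUF/N, a difference of -0.94 (SE 0.21, adjusted p 0.00252), and Cel, a lipase secreted into milk, also passed at -0.86 (SE 0.28, adjusted p 0.0275). Csn1s2a, another casein, had a large difference that did not pass, -2.27 (SE 0.89, adjusted p 0.0615). The alpha-lactalbumin gene Lalba (-0.58, SE 0.35, adjusted p 0.232) and Csn1s1 (-0.39, SE 0.19, adjusted p 0.126) did not pass either.

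The 4 sequences that follow are the 150 bases before the start of Csn2, Csn1s2a, Csn3 and Wap, shown because these are the caseins and the whey protein with the widest gaps in the list, 3 called and Csn1s2a not. They come from the RefSeq promoter table of the rat genome build GRCr8 and read 5′ to 3′ toward the gene. Capitals mark TTCNNNGAA, the palindromic motif bound by STAT5, the factor that carries the prolactin signal to milk genes. The windows are chr14:20601674-20601823 (plus strand) for Csn2, chr14:20574472-20574621 (minus strand) for Csn1s2a, chr14:20439831-20439980 (minus strand) for Csn3 and chr14:85719160-85719309 (minus strand) for Wap.
Csn2: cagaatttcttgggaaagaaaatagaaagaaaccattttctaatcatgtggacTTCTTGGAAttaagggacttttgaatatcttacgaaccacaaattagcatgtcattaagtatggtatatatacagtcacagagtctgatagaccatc
Csn1s2a: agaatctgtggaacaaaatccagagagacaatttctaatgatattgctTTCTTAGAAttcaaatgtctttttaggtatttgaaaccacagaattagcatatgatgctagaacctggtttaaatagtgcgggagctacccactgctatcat
Csn3: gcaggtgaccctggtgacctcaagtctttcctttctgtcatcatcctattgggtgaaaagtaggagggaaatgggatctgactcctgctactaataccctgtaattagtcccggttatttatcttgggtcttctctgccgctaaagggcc
Wap: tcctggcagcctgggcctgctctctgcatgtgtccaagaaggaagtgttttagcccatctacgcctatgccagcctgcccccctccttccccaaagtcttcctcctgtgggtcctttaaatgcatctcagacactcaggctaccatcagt

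The motif, which reads the same on both strands, was present in Csn2 and Csn1s2a and not in these windows of Csn3 and Wap. It was found in 3 of the 11 tested milk genes (Csn1s2a, Csn2 and Csn1s1), in 1 of the 5 called, and in 4.41% of all 33469 promoters of the table. The match is a description of the letters only.

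Lcn2, lipocalin 2, a secreted protein that binds bacterial siderophores, had the largest difference of any luminal marker. Its signals were 80.9, 81.6, 64.6, 93.5 and 41.1 in F344 and 2162.5, 4890.6, 1744.0, 2256.1 and 2655.0 in BUF/N. The lowest BUF/N array was many times the highest F344 array. The means were 72.3 ± 20.3 and 2742 ± 1240, a log2 difference of -5.20 (SE 0.33, adjusted p 8.97e-13), or 36.8-fold. Side by side, the other groups were at 1616 ± 395 in Cop, 2557 ± 1250 in WF, 75.2 ± 37.4 in ACI and 1694 ± 652 in the F1 hybrids, so ACI was near F344 and the rest were closer to BUF/N.

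Of 10 tested markers of luminal epithelium, 4 were lower in F344 and none higher, where 13.3% of all tested probe sets were lower, and the median was -0.54. Krt8, a keratin of luminal cells, was at 715 ± 78.7 in F344 and 1207 ± 207 in BUF/N, a difference of -0.74 (SE 0.22, adjusted p 0.015). The tight junction genes Cldn3 (-0.66, SE 0.24, adjusted p 0.0476) and Ocln (-0.72, SE 0.26, adjusted p 0.0459) also passed, with no overlap between the strains. A second Cldn3 probe set did not pass at -0.37 (SE 0.25, adjusted p 0.292). Other Ocln probe sets gave -0.87 (SE 0.305, adjusted p 0.0373) and 0.02 (SE 0.35, adjusted p 0.978). The calls first given for Krt8, Cldn3 and Ocln were thin. The call of Krt8 ended without BUF/N 3 (adjusted p 0.0509), that of Cldn3 without F344 1, F344 2, F344 3, F344 5, BUF/N 1, BUF/N 2, BUF/N 3 or BUF/N 4 (adjusted p 0.0595 to 0.118) and that of Ocln without F344 1, F344 2, F344 3, F344 5, BUF/N 1, BUF/N 3, BUF/N 4 or BUF/N 5 (adjusted p 0.0534 to 0.149). Krt18, the partner of Krt8, was -0.36 (SE 0.17, adjusted p 0.12) on its brighter probe set and -0.77 (SE 0.21, adjusted p 0.0108) on the other, and Epcam, the pan-epithelial adhesion gene, was -0.44 (SE 0.25, adjusted p 0.199). Without BUF/N 3, 1 of the 10 markers passed, which was Lcn2, while 2 passed without F344 5, without the filter or after median centring, all lower in F344.

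Secretory genes of glands were divided. Of 8 tested, 4 were lower in F344 and 1 higher (62.5% called, against 23.8% of all tested probe sets), with a median of -0.97. The members were chosen with earlier results of these data known, so this share is no test of the list. Lcn2, given above, is 1 of the 4 lower. Scnn1b, the beta subunit of the epithelial sodium channel, read 197.0, 161.2, 86.4, 107.6 and 64.2 in F344 and 620.0, 357.2, 350.2, 470.3 and 435.1 in BUF/N, a difference of -1.94 (SE 0.57, adjusted p 0.0152), and its partner Scnn1g was at -0.91 (SE 0.28, adjusted p 0.0224). Foxq1, a forkhead transcription factor, read 99.0, 139.6, 144.5, 131.9 and 146.0 in BUF/N and was lower in every F344 array, a difference of -1.04 (SE 0.29, adjusted p 0.0109). The exception was Tspan8, an epithelial tetraspanin, with 71.7, 102.5, 74.1, 83.9 and 40.2 in F344 and 8.7, 3.8, 1.2, 6.8 and 12.3 in BUF/N. All 5 BUF/N signals were under the floor, so F344 was at least 3.89-fold higher (adjusted p 8.29e-07). Cop (112 ± 19.1), ACI (57.4 ± 12.7) and WF (95.9 ± 11.7) all had signal, and BUF/N was the low group.

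**Figure D2:**
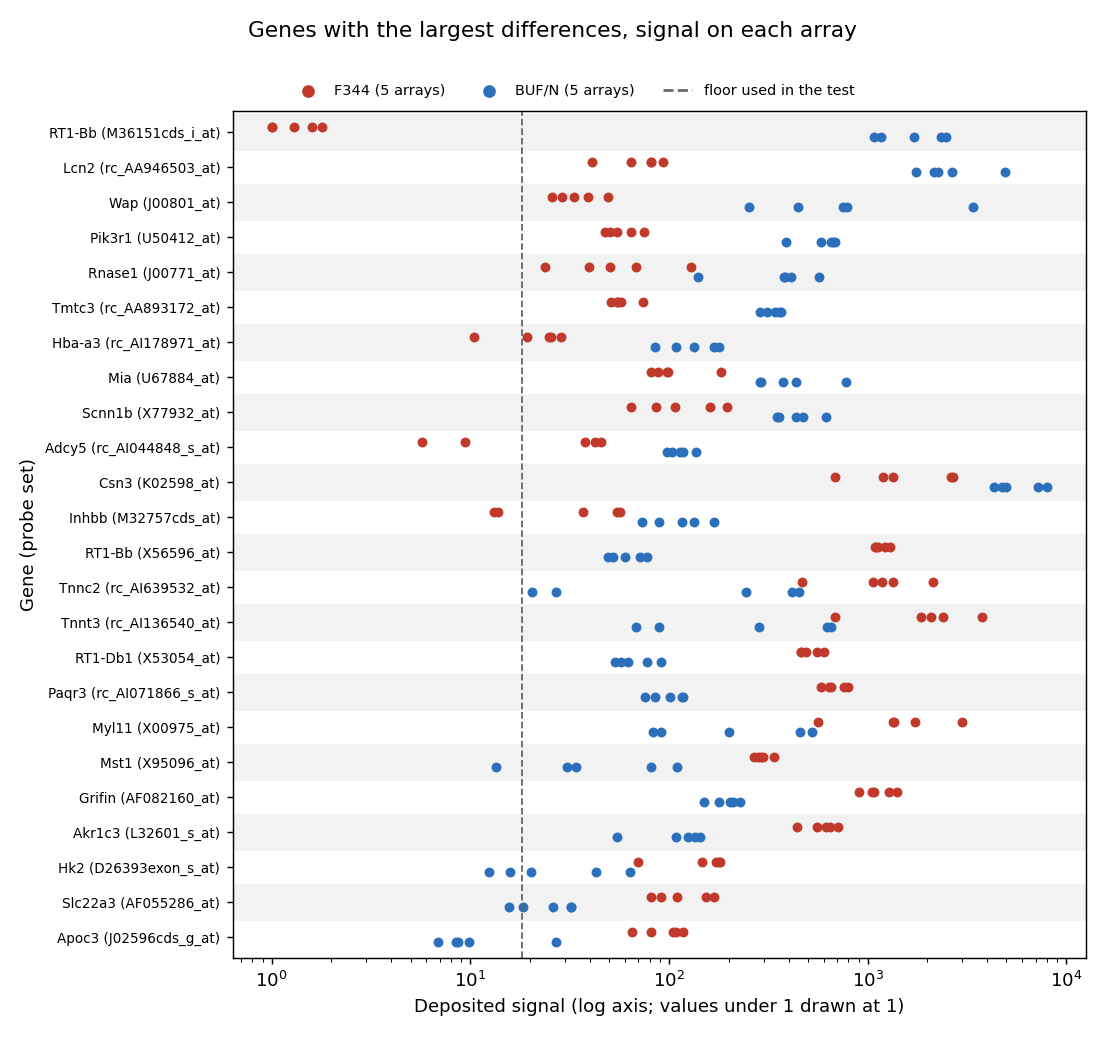
Deposited signal (log axis, values under 1 drawn at 1) on each F344 array (red) and BUF/N array (blue) for the 12 genes in each direction with the largest difference among called probe sets without overlap. The dashed line is the floor of 18.3. In F344 the RT1-Bb probe set in the top row lies under the floor on all 5 arrays, while BUF/N reads 1078.3 to 2474.7.

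Cell cycle and proliferation genes that passed were lower in F344, and each of them acts in mitosis. Of 17 tested, 6 passed and all 6 were lower (35.3%, against 13.3% of all tested probe sets), 4 differences were positive, and the median was -0.37. Pttg1, securin, which holds sister chromatids together until anaphase, led the list with 86.1, 68.4, 139.9, 93.7 and 79.0 in F344 and 479.7, 186.6, 523.9, 243.9 and 213.5 in BUF/N. The strains did not overlap, and BUF/N 1 and BUF/N 3 were the highest of the 10 arrays. The difference was -1.73 (SE 0.26, adjusted p 3.46e-05), or 3.32-fold.

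The mitotic kinase gene Plk1 read 108.4, 170.5, 149.8, 141.4 and 114.3 in F344 and 331.5, 160.4, 433.2, 243.8 and 196.4 in BUF/N, a difference of -0.92 (SE 0.23, adjusted p 0.00562). Cdk1, the kinase that drives entry into mitosis, was at -1.24 (SE 0.40, adjusted p 0.0265), Cdc20, which activates the anaphase-promoting complex, at -1.13 (SE 0.33, adjusted p 0.0161), the cyclin gene Ccnb1 at -0.88 (SE 0.30, adjusted p 0.0332) and the topoisomerase gene Top2a at -1.29 (SE 0.45, adjusted p 0.0369). BUF/N 1 and BUF/N 3 were again the highest arrays for Plk1, Cdc20 and Cdk1, and the ranges of these genes overlapped. The call of Cdc20 ended without BUF/N 1 or BUF/N 3 (adjusted p 0.0581 to 0.0609) and that of Cdk1 without F344 2, F344 5, BUF/N 1 or BUF/N 3 (adjusted p 0.0555 to 0.0947). Over the list, 2 genes passed without BUF/N 3, 2 without BUF/N 1 and 3 without F344 5 or without the filter, all lower in F344. The luminal marker sums given above were also lower in F344, and their part in this result was not tested. Genes of the G1 phase and of DNA replication did not pass: Ccnd1, cyclin D1, was at -0.37 (SE 0.24, adjusted p 0.275), Mcm6, a helicase subunit, at -0.25 (SE 0.34, adjusted p 0.622) and Pcna, the replication clamp, at 0.08 (SE 0.26, adjusted p 0.854). Other Ccnd1 probe sets did not pass either, at -0.52 (adjusted p 0.0669, no overlap), -0.33 (adjusted p 0.222) and -0.16 (adjusted p 0.634). Myc, a growth-promoting transcription factor, was at 0.32 (SE 0.23, adjusted p 0.33).

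Promoters of mitotic genes are known for a repeated CCAAT box bound by NF-Y and for the CHR element TTTGAA, through which they are silenced in resting cells. The next 4 sequences are the 150 bases before the start of Pttg1, Cdc20, Cdk1 and Ccnb1 from the same RefSeq table, shown because these are members called lower in F344. Capitals mark CCAAT and TTTGAA on either strand, so ATTGG and TTCAAA are their reverse complements, and no marked sites overlap. The windows are chr10:28406327-28406476 (minus strand), chr5:137255800-137255949 (minus strand), chr20:19265143-19265292 (plus strand) and chr2:33655226-33655375 (minus strand), in that order.
Pttg1: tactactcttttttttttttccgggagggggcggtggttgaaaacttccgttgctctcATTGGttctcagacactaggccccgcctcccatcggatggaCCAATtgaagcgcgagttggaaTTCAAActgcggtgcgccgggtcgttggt
Cdc20: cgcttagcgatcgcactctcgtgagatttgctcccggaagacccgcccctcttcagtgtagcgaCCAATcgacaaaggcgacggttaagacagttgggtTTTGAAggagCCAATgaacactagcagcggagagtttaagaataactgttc
Cdk1: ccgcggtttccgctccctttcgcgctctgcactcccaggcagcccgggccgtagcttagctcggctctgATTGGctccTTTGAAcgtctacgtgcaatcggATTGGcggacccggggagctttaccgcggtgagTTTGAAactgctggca
Ccnb1: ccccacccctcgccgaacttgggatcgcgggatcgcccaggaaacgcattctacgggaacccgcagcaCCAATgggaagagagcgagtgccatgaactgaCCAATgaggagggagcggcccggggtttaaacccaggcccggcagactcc

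CCAAT was present in all 6 called genes and in 12 of the 15 tested genes that have an entry in the table, against 23.5% of all promoters. TTTGAA was present in 4 of the 6 called (Pttg1, Cdc20, Top2a and Cdk1) and in 5 of the 15, against 9.13% of all promoters. Ccnb1, printed here, has 2 CCAAT boxes and no TTTGAA in this window. These shares describe letters and were not tested.

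Myoepithelial and smooth muscle genes that passed were lower in F344. Of 12 tested, 4 were lower and none higher (33.3%, against 13.3% of all tested probe sets), with a median of -0.46. Their summed signal was 8248 to 9528 (median 9293) over the F344 arrays and 9767 to 11820 (median 11790) over the BUF/N arrays. The luminal sums given above moved the same way, and their part in this result was not tested. Actg2, smooth muscle gamma-actin, read 355.9, 253.9, 227.0, 335.7 and 200.6 in F344 and 814.6, 675.3, 631.9, 540.7 and 648.8 in BUF/N, with no overlap and a difference of -1.29 (SE 0.21, adjusted p 6.74e-05). Cnn1, calponin, was at -0.91 (SE 0.17, adjusted p 0.000481), Myh11, smooth muscle myosin, at -0.81 (SE 0.18, adjusted p 0.00236) and Tagln, transgelin, at -0.49 (SE 0.14, adjusted p 0.0113). Acta2, smooth muscle alpha-actin, did not pass at 0.15 (SE 0.16, adjusted p 0.509), nor did the basal keratin gene Krt14 at -0.50 (SE 0.33, adjusted p 0.279) or Des, desmin, at 1.34 (SE 0.63, adjusted p 0.114). The 4 calls stood without BUF/N 3 and without F344 5, and after median centring 1 further member was called, higher in F344. For Actg2, ACI (796 ± 129) and WF (915 ± 273) were near BUF/N, Cop (419 ± 114) was lower, and F344 against the mean of these 3 strains differed by -1.29 (adjusted p 5.16e-06). In that comparison 395 probe sets (7.84%) were called, and in the matching comparison of BUF/N 711 (14.1%). Both share arrays with F344 against BUF/N, so their values are set side by side only.

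Receptor genes that passed were lower in F344. Of 16 tested receptors of hormones and growth factors, 4 were lower in F344 and none higher, where 13.3% of all tested probe sets were lower, and the median was -0.42. The luminal and myoepithelial sums were lower in F344 too, and their part in this result was not tested. Erbb3, the neuregulin receptor, read 221.1, 171.3, 134.8, 190.1 and 155.6 in F344 and 388.5, 278.6, 419.9, 349.4 and 299.0 in BUF/N, a difference of -0.99 (SE 0.22, adjusted p 0.00216) with no overlap. A dimmer Erbb3 probe set gave -0.24 (SE 0.21, adjusted p 0.425). Vdr, the vitamin D receptor, was at 144 ± 19.5 and 257 ± 38.6, a difference of -0.84 (SE 0.21, adjusted p 0.00518), and Esr2, oestrogen receptor beta, at -0.93 (SE 0.25, adjusted p 0.0102). Tgfbr3, a co-receptor for TGF-beta, passed at -0.76 (SE 0.26, adjusted p 0.0353), and the call ended without F344 1, F344 2, F344 3, F344 5, BUF/N 1, BUF/N 2 or BUF/N 4 (adjusted p 0.0548 to 0.106). A second Tgfbr3 probe set did not pass at -0.72 (SE 0.43, adjusted p 0.22). Esr1, oestrogen receptor alpha, was too dim to be tested. Pgr, the progesterone receptor (-0.58, SE 0.38, adjusted p 0.265), Prlr, the prolactin receptor (0.20, SE 0.22, adjusted p 0.533), and Erbb2 (-0.37, SE 0.18, adjusted p 0.124) did not pass. Ghr, the growth hormone receptor, depended on the probe set. The brightest, with means of 1482 ± 331 and 1052 ± 260.0, did not pass at 0.50 (SE 0.24, adjusted p 0.126), while the other 2 were higher in F344. The dimmer of these gave 1.80 (SE 0.28, adjusted p 4.20e-05), and the other had means of 732 ± 161 and 264 ± 82.6 (adjusted p 6.69e-06).

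Ligands and binding proteins showed no common direction. Of 20 tested growth factor and IGF genes, 2 were higher and 1 lower in F344, where 23.8% of all tested probe sets were called. In this list 7 differences were positive and 13 negative. The lower one called was Bmp3. Its call ended without F344 2, F344 4, F344 5, BUF/N 3 or BUF/N 5 (adjusted p 0.0519 to 0.0767). A second Bmp3 probe set did not pass at -0.65 (SE 0.254, adjusted p 0.0604). Igfbp5, a binding protein that sequesters IGF1 and is known for its role in mammary involution, read 944.3, 802.1, 701.1, 964.1 and 733.1 in F344 and 281.5, 276.7, 99.9, 237.3 and 648.4 in BUF/N. BUF/N 5 was the array nearest to F344, and the difference was 1.66 (SE 0.33, adjusted p 0.000896). Its other 2 probe sets went the other way without passing, at -0.23 (SE 0.31, adjusted p 0.609) and -0.74 (SE 0.28, adjusted p 0.0548). Igf1 passed narrowly at 0.42 (SE 0.15, adjusted p 0.0469), and the call ended without F344 1, F344 2, F344 3, F344 4, F344 5, BUF/N 1, BUF/N 2, BUF/N 3 or BUF/N 4 (adjusted p 0.056 to 0.148). Its other probe sets did not pass, at 0.61 (adjusted p 0.114), 0.49 (adjusted p 0.333), 0.04 (adjusted p 0.942) and -0.03 (adjusted p 0.934). Igfbp2, another binding protein, had the lowest difference of the list at -1.02 on its brightest probe set, which did not pass. Its other probe sets gave -1.14 (SE 0.373, adjusted p 0.0278) and -0.46 (SE 0.326, adjusted p 0.318), each with no overlap. H19, an imprinted RNA beside the Igf2 gene, did not pass at -0.50 (SE 0.49, adjusted p 0.477). Inhbb, the beta B subunit of inhibin and activin, fell outside the list and was lower in F344, with 37.0, 55.0, 13.8, 56.9 and 13.2 against 169.1, 133.6, 116.3, 72.9 and 88.9 in BUF/N, a difference of -1.76 (SE 0.42, adjusted p 0.0037). The F344 signals of 13.8 and 13.2 lay under the floor, and the difference ran from -1.95 to -0.97 over the alternatives.

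A pair of signalling genes was among the largest differences. Pik3r1, the p85 alpha regulatory subunit of phosphoinositide 3-kinase, read 55.0, 64.5, 50.7, 75.1 and 47.8 in F344 and 688.0, 584.6, 387.0, 672.9 and 652.4 in BUF/N. The BUF/N signals were all well clear of F344, with BUF/N 3 the lowest of them. The difference was -3.34 (SE 0.31, adjusted p 5.04e-09), and a second probe set gave -2.69 (SE 0.30, adjusted p 2.40e-07). Cop (35.4 ± 10.9), WF (34.5 ± 20.9) and ACI (191 ± 68.8) were all below BUF/N, which differed from their mean by 3.32 (adjusted p 7.83e-11), while F344 differed by -0.02 (adjusted p 0.973). Adcy5, an adenylyl cyclase, was lower in F344 on its dimmer probe set (-1.91, SE 0.25, adjusted p 4.18e-06), where 2 F344 arrays were under the floor, and the brighter one gave -0.19 (SE 0.19, adjusted p 0.494).

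Adipocyte genes that passed were higher in F344. Of 14 tested markers, 6 passed and all 6 were higher (42.9%, against 10.5% of all tested probe sets), 4 differences were negative, and the list had a median of 0.44. Their summed signal was 26320 to 28770 (median 28210) over the F344 arrays and 15530 to 21090 (median 20640) over the BUF/N arrays, with no overlap. Pparg, the master regulator of fat cell differentiation, read 900.0, 874.9, 887.7, 615.2 and 792.0 in F344 and 281.1, 356.1, 316.5, 451.1 and 430.2 in BUF/N, a difference of 1.16 (SE 0.24, adjusted p 0.00104), or 2.23-fold. Lpl, lipoprotein lipase, was at 5390 ± 599 and 2736 ± 416 on its first probe set (0.98, SE 0.21, adjusted p 0.00136), while its other 2 gave 0.21 (SE 0.20, adjusted p 0.462) and 0.14 (SE 0.11, adjusted p 0.395). Cidea, a lipid droplet protein of brown and white fat, was higher at 0.79 (SE 0.18, adjusted p 0.00326). Fabp4, the fatty acid binding protein of fat cells, passed at 0.86 (SE 0.28, adjusted p 0.0278), and the call ended without F344 2, F344 3, BUF/N 3 or BUF/N 4 (adjusted p 0.0568 to 0.0998). Lep, leptin, went the other way without passing, at -0.44 (SE 0.17, adjusted p 0.0616). The list had 3 calls without BUF/N 3, 3 without F344 3, and 4 without F344 2, F344 5 or the filter, all higher in F344. After quantile normalization 1 member was called lower, beside 6 higher.

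Enzymes of fatty acid synthesis that passed were also higher in F344. Of 12 tested, 4 passed and all 4 were higher (33.3%, against 10.5% of all tested probe sets), 5 differences were negative, and the list had a median of 0.42. Acaca, acetyl-CoA carboxylase, the committed step of the pathway, read 266.0, 210.5, 239.1, 146.2 and 507.7 in F344 and 98.8, 110.6, 86.4, 93.7 and 113.4 in BUF/N, a difference of 1.33 (SE 0.28, adjusted p 0.00113) with no overlap. Fasn, fatty acid synthase, was at 3510 ± 1570 and 1238 ± 437 (1.45, SE 0.39, adjusted p 0.00935), and Me1, malic enzyme, which supplies the NADPH, was higher at 1.55 (SE 0.36, adjusted p 0.00293) and on all 3 of its other probe sets. F344 5 was the highest and F344 4 the lowest F344 array for Acaca, Fasn and Me1. Scd, stearoyl-CoA desaturase, was at 0.73 (SE 0.23, adjusted p 0.0233), and its call ended without BUF/N 1 or BUF/N 4 (adjusted p 0.058 to 0.0829). Acly (0.42, SE 0.28, adjusted p 0.274) and Srebf1, the regulator of the pathway (-0.21, SE 0.26, adjusted p 0.578), did not pass. The adipocyte marker sums were also higher in F344, and their part in this result was not tested.

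Sterol genes passed in both directions. Of 13 tested, 4 were higher and 1 lower in F344 (38.5% called, against 23.8% of all tested probe sets). Insig1, which retains the SREBP complex in the endoplasmic reticulum, read 2185.8, 1515.3, 1190.4, 979.4 and 1502.1 in F344 and 450.1, 408.7, 294.5, 344.9 and 682.9 in BUF/N, a difference of 1.77 (SE 0.23, adjusted p 3.01e-06) with no overlap. Idi1, isopentenyl diphosphate isomerase, was higher at 1.10 (SE 0.24, adjusted p 0.00178) and Msmo1, a sterol oxidase, at 0.57 (SE 0.16, adjusted p 0.0107). Dhcr7, the last enzyme of cholesterol synthesis, was lower at -0.63 (SE 0.21, adjusted p 0.0326), and that call ended without F344 2, F344 3, F344 4, F344 5, BUF/N 1, BUF/N 4 or BUF/N 5 (adjusted p 0.0508 to 0.0808). A second Dhcr7 probe set did not pass at -0.32 (SE 0.24, adjusted p 0.334).

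**Figure D3:**
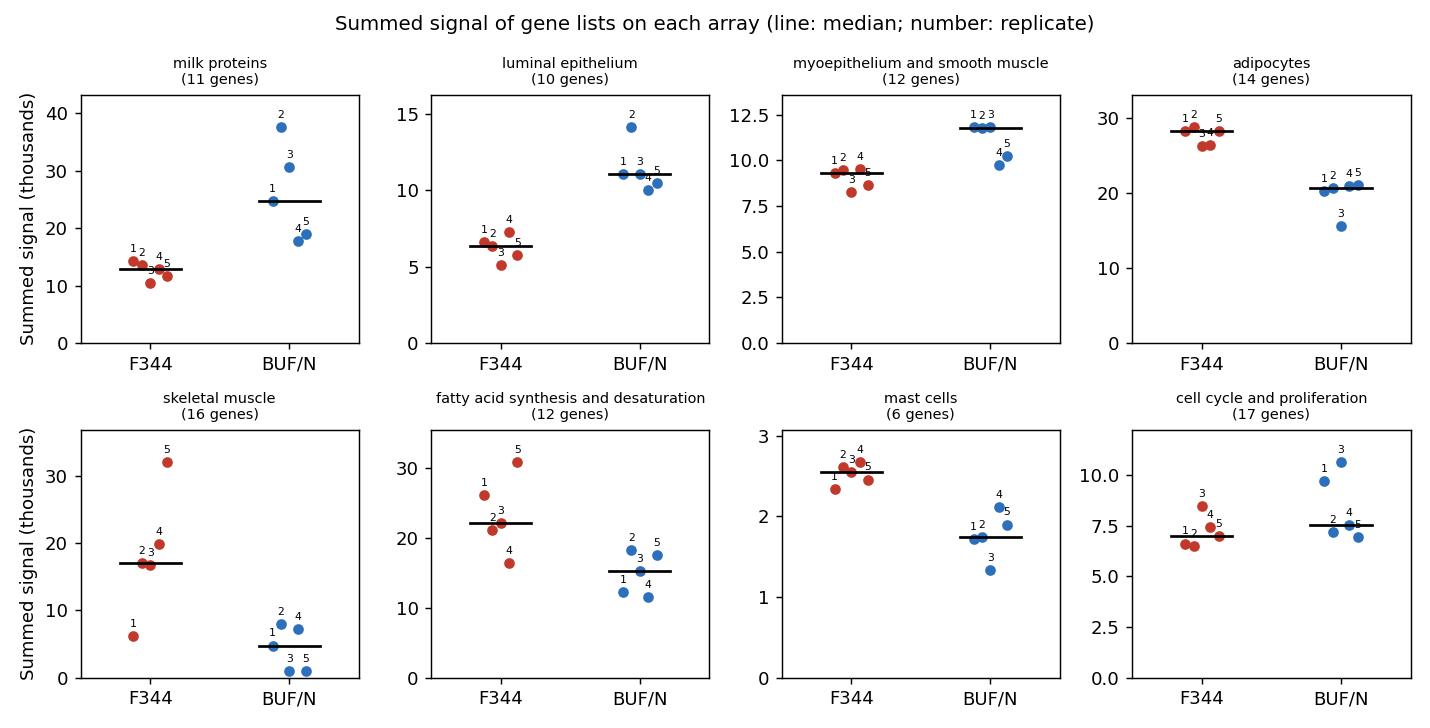
Summed signal (linear axes from 0, labelled in units of 1000) of the tested members of 8 gene lists on each array, F344 in red and BUF/N in blue, with the replicate number beside each point and the median as a line. The milk protein, luminal, myoepithelial, adipocyte and mast cell sums do not overlap between the strains. The skeletal muscle sum runs from 6227 to 32080 in F344 and from 964.4 to 7939 in BUF/N.

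Skeletal muscle genes were the most displaced list. Of 16 tested, 12 were higher in F344 (75.0%, against 10.5% of all tested probe sets) and none lower, all 16 differences were positive, and the median was 2.40. Muscle sums ran from lowest in F344 1 to highest in F344 5 within F344, and BUF/N 3 and BUF/N 5 were the lowest of all 10 arrays. Tnnc2, fast troponin C, read 465.8, 1062.7, 1174.7, 1342.0 and 2135.5 in F344 and 243.2, 417.9, 20.5, 451.5 and 27.1 in BUF/N, a difference of 3.20 (SE 1.09, adjusted p 0.0338). Tnnt3, fast troponin T, was at 3.01 (SE 0.94, adjusted p 0.0221), Myl11, a fast myosin light chain, at 2.77 (SE 0.87, adjusted p 0.0227) and Eno3, muscle enolase, at 3.03 (SE 0.75, adjusted p 0.0051). For Eno3, 3 of the 5 BUF/N arrays were under the floor, and the difference ran from 2.10 to 4.10 over the alternatives. The spread within each strain was wide, and most calls ended when 1 array was left out. The call of Tnnc2 ended without F344 2, F344 3, F344 4, F344 5, BUF/N 3 or BUF/N 5 (adjusted p 0.0551 to 0.117), that of Tnnt3 without F344 5, BUF/N 3 or BUF/N 5 (adjusted p 0.0543 to 0.0745) and that of Myl11 without F344 5, BUF/N 3 or BUF/N 5 (adjusted p 0.0563 to 0.0676), while Eno3 kept its call under each. Over the list, 3 genes passed without BUF/N 3, 1 without F344 5, 7 without F344 3 and 3 without the filter, all higher in F344. Cop also varied widely for Tnnt3 (1070 ± 1090).

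Genes of the respiratory chain that passed were higher in F344. Of 24 tested, 6 were higher and none lower, where 10.5% of all tested probe sets were higher, and the median was 0.44. Ndufa5, a subunit of complex I, read 846.0, 859.2, 969.8, 907.4 and 1094.1 in F344 and 470.1, 537.2, 484.3, 496.5 and 545.2 in BUF/N, with no overlap and a difference of 0.88 (SE 0.20, adjusted p 0.00287). Ndufs1, another complex I subunit, was higher at 0.98 (SE 0.24, adjusted p 0.00484), with F344 5 the highest array. Cox8b, a cytochrome oxidase subunit of heart and skeletal muscle, had the largest difference of the list at 1.62 (SE 0.57, adjusted p 0.0372). Without BUF/N 3, F344 3 or F344 5 the list had 2 calls each time, and after median centring it had 9, all higher. The summed muscle signals given above differ between the strains in the same direction, and their part in this result was not tested.

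Fat oxidation and glucose use were mixed. Of 18 tested beta oxidation genes, 3 were higher in F344 (16.7%, against 10.5% of all tested probe sets): Etfa, an electron carrier (0.78, SE 0.15, adjusted p 0.000729), Hadhb, of the trifunctional protein (0.56, SE 0.13, adjusted p 0.0037), and Acadvl, very long chain acyl-CoA dehydrogenase (0.50, SE 0.17, adjusted p 0.0363). The call of Acadvl ended without F344 1, F344 3, F344 4, F344 5, BUF/N 2, BUF/N 3 or BUF/N 4 (adjusted p 0.0527 to 0.0899). Of 17 glycolytic genes, 3 were higher and 2 lower (29.4% called, against 23.8% of all tested probe sets). Pfkp, platelet-type phosphofructokinase, was higher in F344 at 0.80 (SE 0.17, adjusted p 0.00105) and Ldhb, lactate dehydrogenase B, at 0.59 (SE 0.16, adjusted p 0.0114), while Pfkl, the liver type, was lower at -1.37 (SE 0.40, adjusted p 0.0151), with F344 4 far below the other F344 arrays. The Pfkl call ended when only the 10 arrays compared were fitted. Hk2, hexokinase 2, depended on the probe set: the exon-derived one read 181.0, 146.5, 172.8, 69.5 and 179.5 in F344 and 20.1, 42.9, 15.8, 12.4 and 63.9 in BUF/N (2.32, SE 0.42, adjusted p 0.000335), and the brighter one did not pass at -0.34 (SE 0.17, adjusted p 0.156). For the exon-derived probe set, the BUF/N signals of 15.8 and 12.4 lay under the floor. Its difference ran from 1.3 to 2.61 over the alternatives.

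MHC class II probe sets held the largest signal differences of the whole comparison in either direction, and they pointed both ways. Class II molecules are pairs of an alpha and a beta chain that present peptides to CD4+ T cells, and they are among the most variable genes between inbred strains. Of the probe sets tested, 4 are annotated to RT1-Bb, a beta chain gene. The first read 1221.0, 1104.7, 1088.1, 1302.8 and 1123.0 in F344 and 59.8, 49.4, 71.4, 77.2 and 52.5 in BUF/N, a difference of 4.25 (SE 0.21, adjusted p 1.17e-15). The second read 1.3, 1.8, 0.8, 1.6 and 1.0 in F344 and 2329.6, 1078.3, 1174.0, 2474.7 and 1710.3 in BUF/N. All 5 F344 signals of the second were under the floor, so BUF/N was at least 90.5-fold higher (adjusted p 5.52e-20). The third was under the floor in F344 (5.50 ± 4.90) and at 422 ± 140.0 in BUF/N, at least 21.8-fold higher there, and the fourth had signal in both strains, with a difference of -0.83 (SE 0.24, adjusted p 0.014).

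The other strains divided by probe set as well. On the first RT1-Bb probe set WF (50.7 ± 20.3) was near BUF/N, while Cop (958 ± 113), ACI (969.5 ± 269) and the F1 hybrids (1145 ± 265) were near F344. The second had signal in BUF/N alone among the 6 groups, with Cop at 1.62 ± 0.850, ACI at 1.58 ± 0.642 and WF at 1.64 ± 0.808. The third had signal in BUF/N and in WF (664 ± 328). The order of the strains changed with the probes, and no single direction is given for RT1-Bb. The probe sequences were not analysed here, so whether a class II probe set reads less RNA or a strain's own sequence that its probes do not match was not tested, and the folds are of signal only.

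RT1-Ba, the matching alpha chain, behaved likewise. Its brightest probe set read 1639.1, 2432.3, 1407.8, 1848.6 and 1566.9 in F344 and 343.4, 431.9, 485.6, 471.1 and 507.1 in BUF/N, a difference of 1.98 (SE 0.24, adjusted p 1.25e-06), while the others gave -0.93 (SE 0.23, adjusted p 0.0042) and 0.21 (SE 0.33, adjusted p 0.669). RT1-Db1, the beta chain of the second class II pair, was higher in F344 on both probe sets. The dimmer read 464.4, 487.8, 558.6, 601.8 and 464.5 in F344 and 53.3, 57.4, 62.5, 77.9 and 91.1 in BUF/N (2.93, SE 0.28, adjusted p 9.90e-09), and the brighter gave 0.89 (SE 0.28, adjusted p 0.0221), a call that ended without F344 4, BUF/N 1 or BUF/N 3 (adjusted p 0.0505 to 0.0796). RT1-DMa, a chain of the peptide editor, was lower in F344 at -0.54 (SE 0.17, adjusted p 0.0207) on one probe set and -0.12 (SE 0.34, adjusted p 0.829) on the other, and the call ended without F344 3 or BUF/N 3 (adjusted p 0.053 to 0.0733). Cd74, the invariant chain that escorts class II molecules, did not pass at -0.05 (SE 0.23, adjusted p 0.898), nor did RT1-Da, an alpha chain, at -0.30 (SE 0.23, adjusted p 0.371). Over the list of 9 tested genes, each by its brightest probe set, 2 were higher and 2 lower, with a median of -0.05. This was 44.4% called, against 23.8% of all tested probe sets.

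**Figure D4:**
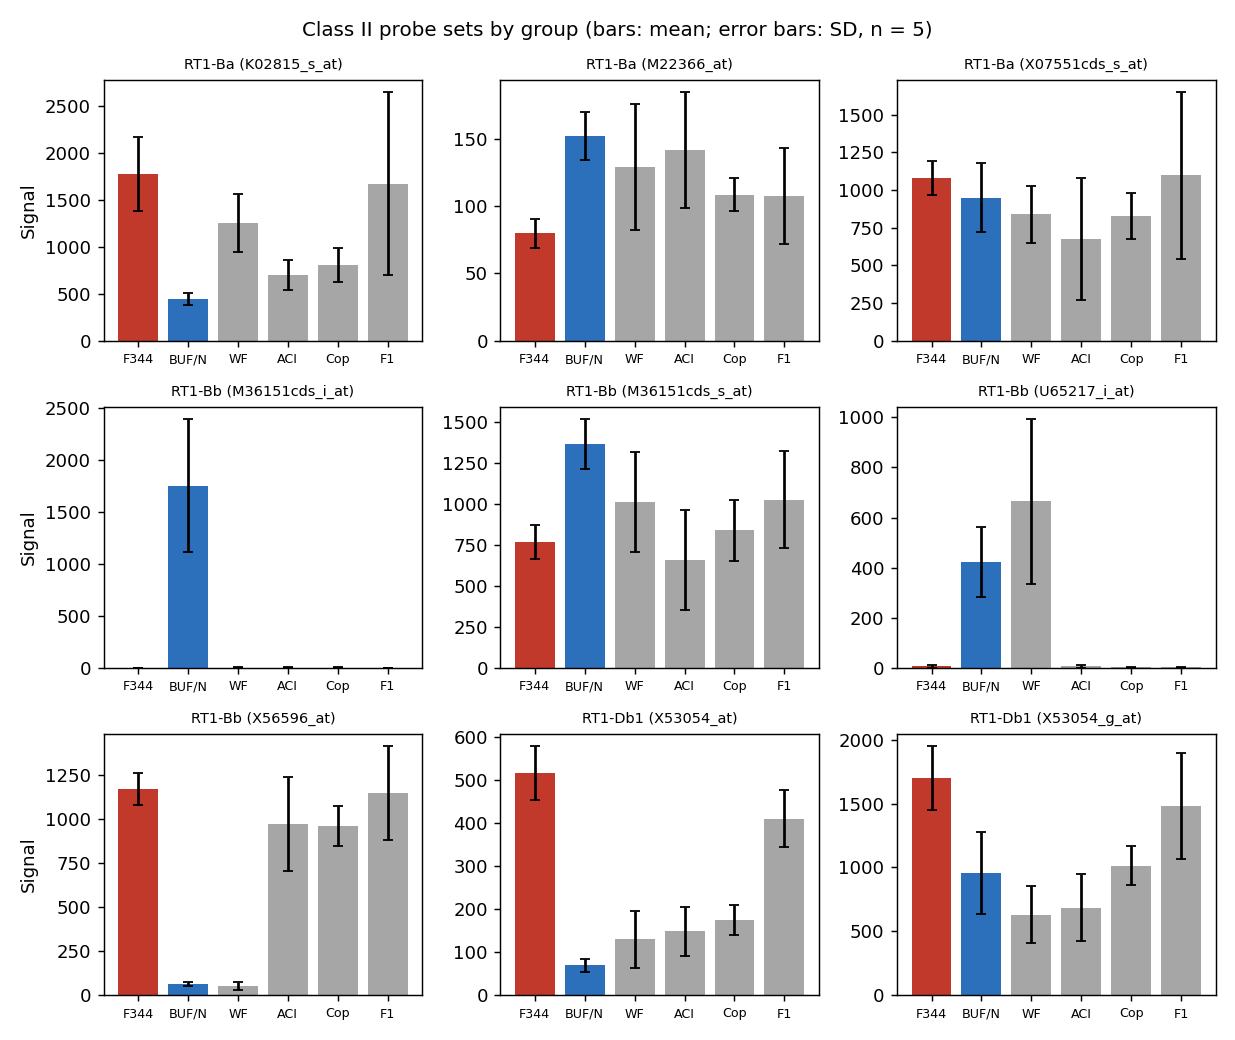
Mean signal (linear axes from 0, error bars SD, n = 5) of 9 class II probe sets in F344 (red), BUF/N (blue), WF, ACI, Cop and the F1 hybrids (grey). The RT1-Bb probe set at left in the middle row has signal in BUF/N alone (1753 ± 641), and the one at left in the bottom row is low in BUF/N (49.4 to 77.2) and WF (mean 50.7) and high in the other groups.

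Class I and antigen processing genes passed in 1 direction. Of 12 tested, 3 were lower in F344 and none higher, where 13.3% of all tested probe sets were lower. Psmb8, a subunit of the immunoproteasome, read 527.9, 585.5, 452.2, 567.6 and 473.6 in F344 and 896.9, 723.9, 1330.9, 998.0 and 957.8 in BUF/N, a difference of -0.89 (SE 0.18, adjusted p 0.000907). RT1-M3-1, a class I gene, was at -0.71 (SE 0.21, adjusted p 0.0158), a call that ended without F344 3, F344 5 or BUF/N 3 (adjusted p 0.05 to 0.0541), and RT1-N3 at -1.13 (SE 0.39, adjusted p 0.0361), a call that ended without F344 1, F344 2, F344 4, BUF/N 1, BUF/N 3 or BUF/N 5 (adjusted p 0.0555 to 0.102). B2m, the light chain of class I, did not pass at 0.20 (SE 0.11, adjusted p 0.197). Without BUF/N 3, 1 of the 12 passed.

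Some markers of mast cells and of blood differed, while others of the same lists did not. Of 6 tested mast cell genes, 2 were higher in F344 (33.3%, against 10.5% of all tested probe sets). In this list 2 differences were negative, and the median was 0.16. Cpa3, mast cell carboxypeptidase, read 661.8, 808.3, 897.4, 682.8 and 712.6 in F344 and 255.7, 294.6, 199.8, 339.9 and 285.2 in BUF/N, with no overlap and a difference of 1.46 (SE 0.17, adjusted p 5.03e-07), and Cma1, chymase, was higher at 0.62 (SE 0.14, adjusted p 0.00239). Tpsb2, a mast cell tryptase (0.20, SE 0.24, adjusted p 0.568), and Kit, the stem cell factor receptor (-0.20, SE 0.30, adjusted p 0.659), did not pass. Tpsab1, another tryptase, did not pass at -0.39, the lowest of the list, and with array weights it was called lower (-0.49, adjusted p 0.00541). For Cpa3 the other strains were near F344, with Cop at 806 ± 94.0, ACI at 854 ± 134 and WF at 616 ± 157, and BUF/N differed from their mean by -1.45 (adjusted p 1.34e-08).

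Haemoglobin genes went both ways. Hbb, beta globin, was higher in F344 at 4355 ± 1100 against 1989 ± 772 (1.19, SE 0.25, adjusted p 0.0012). Hba-a3, an alpha globin gene, was lower, with 21.8 ± 7.16 in F344 and 135 ± 39.8 in BUF/N (-2.49, SE 0.32, adjusted p 3.01e-06) and no overlap. Alas2, of haem synthesis in red cell precursors, did not pass at 0.45 (SE 0.22, adjusted p 0.128). The globin genes are near-identical copies, and how their probes divide the signal was not tested.

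None of the 10 tested T and NK cell markers and neither of the 2 B cell markers passed, where 23.8% of all tested probe sets were called. Lck, a T cell kinase, was at -0.42 (SE 0.36, adjusted p 0.41) and Cd79b, of the B cell receptor, at -0.69 (SE 0.53, adjusted p 0.348). Of 5 macrophage markers, C1qb, a complement subunit, was higher in F344 (0.49, SE 0.16, adjusted p 0.0266) and Cd14, the endotoxin co-receptor, lower (-0.68, SE 0.25, adjusted p 0.0491). Both calls were thin: that of C1qb ended without F344 2, F344 3, F344 5 or BUF/N 3 (adjusted p 0.0508 to 0.0847) and that of Cd14 without F344 1, F344 3, F344 4, F344 5, BUF/N 1, BUF/N 2, BUF/N 4 or BUF/N 5 (adjusted p 0.0506 to 0.151). A second C1qb probe set passed at 0.66 (SE 0.19, adjusted p 0.0141), and a second Cd14 probe set did not pass at -0.31 (SE 0.21, adjusted p 0.292). Of 5 endothelial markers, Kdr, the main VEGF receptor, passed at 0.72 (SE 0.24, adjusted p 0.0325), a call that ended without F344 1, F344 2, F344 4, F344 5, BUF/N 1, BUF/N 2 or BUF/N 3 (adjusted p 0.0528 to 0.0893).

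Stromal lists differed in how many members passed. Of 11 fibroblast markers, Thy1, a surface glycoprotein, was the only one called (9.09%, against 23.8% of all tested probe sets). It read 446.4, 467.3, 484.1, 438.2 and 380.5 in F344 and 1273.7, 640.8, 1726.6, 759.0 and 978.4 in BUF/N (-1.19, SE 0.27, adjusted p 0.00249), and its second probe set gave -1.11 (SE 0.19, adjusted p 0.000182). The collagen genes Col1a1 (-0.28, SE 0.16, adjusted p 0.193) and Col3a1 (-0.12, SE 0.35, adjusted p 0.84) did not pass. Of 31 tested matrix genes and proteases, 8 were lower and 2 higher in F344 (32.3% called). Col2a1, cartilage collagen, read 85.1, 73.7, 85.0, 83.5 and 74.6 in F344 and 257.0, 142.6, 330.6, 209.0 and 220.7 in BUF/N (-1.48, SE 0.29, adjusted p 0.000787), and Mia, a protein secreted by cartilage, was also lower, with 98.4, 81.0, 183.2, 97.7 and 88.2 against 374.4, 437.7, 779.3, 290.1 and 287.5 (-1.95, SE 0.30, adjusted p 4.10e-05). BUF/N 3 was the highest array for both. Bgn, biglycan, was at -0.59 (SE 0.14, adjusted p 0.0028) and Mmp2, gelatinase A, at -0.62 (SE 0.17, adjusted p 0.0112). Itga1, a collagen-binding integrin, was higher in F344 at 294 ± 21.7 against 145 ± 17.8 (1.03, SE 0.15, adjusted p 3.28e-05). The list had 5 lower and 1 higher without BUF/N 3.

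Enzymes that act on carcinogens and hormones were divided. Of 26 tested genes of xenobiotic oxidation, reduction and conjugation, 4 were higher and 2 lower in F344, about the share of all probe sets. Akr1c3, an aldo-keto reductase of steroid metabolism, read 442.9, 617.4, 708.7, 644.9 and 556.7 in F344 and 108.0, 134.5, 54.8, 144.0 and 124.9 in BUF/N, a difference of 2.45 (SE 0.28, adjusted p 2.40e-07), and its second probe set gave 1.93 (SE 0.23, adjusted p 8.29e-07). Cbr1, carbonyl reductase, was at 1793 ± 630.0 and 784 ± 89.5 (1.13, SE 0.31, adjusted p 0.0114), between Cop and ACI at 222 ± 83.4 and 288 ± 95.5 and WF at 2134 ± 443. Ephx1, microsomal epoxide hydrolase, which opens the epoxides of polycyclic hydrocarbons, was higher in F344 at 0.68 (SE 0.24, adjusted p 0.0373), a call that ended without F344 1, F344 2, F344 3, F344 4, F344 5, BUF/N 1, BUF/N 2 or BUF/N 3 (adjusted p 0.0575 to 0.131). Sult1a1, a phenol sulfotransferase, was at 0.79 (SE 0.27, adjusted p 0.0317) and 1.47 (SE 0.28, adjusted p 0.000464), and the former call ended without F344 2, F344 3, F344 5, BUF/N 1 or BUF/N 3 (adjusted p 0.0535 to 0.104). Nqo1, a quinone reductase, did not pass at 0.21 (SE 0.34, adjusted p 0.686). Ephx2, soluble epoxide hydrolase, gave -0.05 (SE 0.36, adjusted p 0.942) on its brightest probe set and passed on its dimmest at 0.96 (SE 0.26, adjusted p 0.00862).

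Of 22 genes of glutathione transfer and metabolism, 3 were higher and 2 lower in F344 (22.7% called, against 23.8% of all tested probe sets). Gstt1, a theta class transferase, read 129.2, 173.5, 121.3, 105.7 and 114.7 in F344 and 296.2, 224.1, 249.8, 208.2 and 220.5 in BUF/N, a difference of -0.91 (SE 0.17, adjusted p 0.000526) with no overlap. Gsta1, an alpha class transferase, was higher at 0.92 (SE 0.22, adjusted p 0.00342) and Gsto1, of the omega class, at 0.58 (SE 0.16, adjusted p 0.0118). A second Gsto1 probe set did not pass at 0.45 (SE 0.17, adjusted p 0.0548). Other Gsta1 probe sets gave 0.78 (SE 0.21, adjusted p 0.00882) and 0.34 (SE 0.25, adjusted p 0.332). The alpha class probe sets are of a type shared by a gene family, so their signals may include close relatives. Gstp1, the pi class transferase, was at -0.15 (SE 0.16, adjusted p 0.522).

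Genes of DNA repair, p53 and apoptosis gave 2 calls in 15, both lower in F344, the same share (13.3%) as over all tested probe sets. Bak1, which permeabilises the outer mitochondrial membrane in apoptosis, read 167.5, 166.2, 187.3, 160.5 and 143.1 in F344 and 395.7, 317.8, 345.3, 275.1 and 204.1 in BUF/N (-0.87, SE 0.20, adjusted p 0.00243), and Casp2 was at -0.58 (SE 0.19, adjusted p 0.0294), a call that ended without F344 3, F344 5, BUF/N 3 or BUF/N 4 (adjusted p 0.0533 to 0.0983). Other Casp2 probe sets gave -0.97 (SE 0.34, adjusted p 0.0377) and -0.21 (SE 0.26, adjusted p 0.575). Mgmt, which removes alkyl groups from guanine, was at 0.07 (SE 0.28, adjusted p 0.887) on its brighter probe set and at -0.77 (SE 0.21, adjusted p 0.0109) on the dimmer. Cdkn1a, p21, was too dim to be tested.

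Heat shock genes that passed on their brightest probe set were higher in F344, while endoplasmic reticulum chaperones were called near the share of all probe sets. Of 10 cytosolic and mitochondrial heat shock genes, 4 were higher and none lower, where 10.5% of all tested probe sets were higher. Cryab, a small heat shock protein abundant in muscle, was at 311 ± 117 against 105 ± 12.2 (2.82-fold, adjusted p 0.000428). The others were the mitochondrial chaperonins Hspd1 (0.53, SE 0.17, adjusted p 0.0257) and Hspe1 (0.57, SE 0.12, adjusted p 0.00193), and Hspb1. Hspb1 was higher at 0.77 (SE 0.19, adjusted p 0.00556) on one probe set, lower at -0.64 (SE 0.17, adjusted p 0.0103) on another and not called on 2 more. The call of Hspd1 on the first probe set ended without F344 3, F344 5, BUF/N 1 or BUF/N 4 (adjusted p 0.0525 to 0.0791), and its second gave 1.04 (SE 0.25, adjusted p 0.00368). Of 14 chaperones of the endoplasmic reticulum, 3 were higher and 1 lower (28.6% called, against 23.8% of all tested probe sets). Hspa5, BiP, was at 0.51 (SE 0.16, adjusted p 0.0227), a call that ended without F344 5 or BUF/N 3 (adjusted p 0.0564 to 0.0644), and Hyou1, which works with it, was lower, with 164.8, 141.9, 155.8, 148.9 and 169.1 against 329.9, 332.6, 208.0, 290.2 and 271.9 (-0.86, SE 0.26, adjusted p 0.0193).

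Proteasome genes gave 6 calls in 19, all higher in F344 (31.6%, against 10.5% of all tested probe sets), with a median of 0.21. Psma1, of the core ring, was at 658 ± 47.5 and 444 ± 62.5 (0.58, SE 0.16, adjusted p 0.0103). This was the only one of the 6 that passed without BUF/N 3, without F344 3 or without F344 5. Cytosolic ribosomal protein genes had few calls (9.38%, against 23.8% of all tested probe sets). Of 32 tested, 3 were lower in F344 and none higher, and none passed without BUF/N 3. Their median was -0.08, the same as over all tested probe sets. No gene of the circadian clock passed among 7 tested, where Per2, a repressor of the clock, was at 0.22 (SE 0.35, adjusted p 0.684) and Dbp, one of its outputs, at 0.13 (SE 0.41, adjusted p 0.847). Of 23 immediate early genes, 2 were higher and 2 lower (17.4% called, against 23.8% of all tested probe sets). They were led by Klf4, a zinc finger factor (1.01, SE 0.21, adjusted p 0.00105), and Dusp5, an ERK phosphatase (-0.68, SE 0.18, adjusted p 0.01), while Fos was at -0.11 (SE 0.20, adjusted p 0.736). A second Klf4 probe set did not pass at 0.46 (SE 0.18, adjusted p 0.0567). Dusp1 was higher at 0.91 (SE 0.26, adjusted p 0.0144), a call that ended without F344 3 or BUF/N 3 (adjusted p 0.0539 to 0.067). Other Dusp1 probe sets gave 1.99 (SE 0.27, adjusted p 7.2e-06) and 0.75 (SE 0.29, adjusted p 0.0588).

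Of 14 plasma protein genes best known from liver, 3 were higher and 1 lower in F344 (28.6% called, against 23.8% of all tested probe sets). Apoc3, an apolipoprotein, was higher on all 3 of its probe sets. The dimmest read 117.5, 80.9, 109.1, 65.5 and 104.3 in F344 and 8.5, 8.7, 6.9, 9.8 and 27.0 in BUF/N, with no overlap (adjusted p 3.69e-05). As 4 of these 5 BUF/N arrays were under the floor, its log2 difference ran from 0.98 to 3.14 over the alternatives, with 2.24 at the floor used here. The brightest gave 0.48 (SE 0.18, adjusted p 0.0469), a call that ended without F344 1, F344 2, F344 3, F344 5, BUF/N 1, BUF/N 2, BUF/N 3 or BUF/N 4 (adjusted p 0.0607 to 0.109). Rbp4, the retinol carrier, which fat also makes, was higher at 0.70 (SE 0.17, adjusted p 0.0051) on its first probe set. Its others did not pass, at 0.57 (SE 0.27, adjusted p 0.12) and 0.18 (SE 0.63, adjusted p 0.867). A2m, a protease inhibitor, was lower at -0.68 (SE 0.19, adjusted p 0.0111). Other A2m probe sets gave -0.68 (SE 0.20, adjusted p 0.0177) and -0.49 (SE 0.30, adjusted p 0.237). Of 16 chemokine and cytokine genes, Ccl2, which attracts monocytes, was the only one called (6.25% of the list), at 0.58 (SE 0.19, adjusted p 0.0288), and the call ended without F344 1, F344 3, BUF/N 3, BUF/N 4 or BUF/N 5 (adjusted p 0.0523 to 0.0903). A second Ccl2 probe set did not pass at 0.33 (SE 0.21, adjusted p 0.256). Of 11 translation factors, 2 were higher and 1 lower (27.3% called), and none passed without BUF/N 3 or without F344 3.

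Several of the largest differences fell in no list. Grifin, a galectin-related protein of the lens, read 1412.2, 1282.6, 1076.4, 903.8 and 1051.7 in F344 and 209.9, 177.8, 226.9, 149.5 and 202.8 in BUF/N (2.56, SE 0.19, adjusted p 3.43e-11). It was lower still in Cop (146 ± 15.2), ACI (99.6 ± 15.1) and WF (61.5 ± 21.2), and the F1 hybrids were in between at 557 ± 116. Paqr3, a Golgi protein that binds Raf kinases, read 758.0, 656.1, 799.4, 640.4 and 582.8 in F344 and 101.5, 116.3, 75.7, 84.9 and 118.3 in BUF/N (2.80, SE 0.28, adjusted p 2.09e-08), with the other inbred strains between them (Cop 221 ± 57.2, ACI 203 ± 92.7, WF 320.0 ± 80.0). Mst1, macrophage-stimulating protein, was lowest in BUF/N among the inbred strains. It read 337.1, 280.0, 292.2, 269.4 and 297.1 in F344 and 30.6, 13.5, 34.0, 81.6 and 109.2 in BUF/N (2.73, SE 0.28, adjusted p 4.73e-08), while Cop, ACI and WF were at 341 ± 57.0, 194 ± 41.4 and 230.2 ± 19.1. Slc22a3, an organic cation transporter, was higher in F344 on both probe sets (2.24, SE 0.30, adjusted p 6.01e-06, and 1.82, SE 0.26, adjusted p 1.05e-05).

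Among genes lower in F344, Kif13a and Tmtc3 were low in F344 against most strains. Kif13a, a kinesin of endosomes, read 75.8, 78.3, 71.7, 74.6 and 72.4 in F344 and 243.2, 229.6, 225.4, 255.6 and 283.8 in BUF/N (-1.73, SE 0.15, adjusted p 1.02e-09), and Cop and ACI were at 271 ± 16.4 and 308 ± 31.5, with WF higher still. The F344 signals spanned a very narrow range. Tmtc3, a mannosyltransferase of the endoplasmic reticulum, read 73.6, 57.2, 54.7, 51.3 and 55.4 in F344 and 340.6, 288.5, 358.5, 311.7 and 365.0 in BUF/N (-2.52, SE 0.24, adjusted p 1.44e-08), with Cop at 414 ± 91.6, ACI at 572 ± 195 and WF lower at 99.2 ± 23.4. Rnase1, a secreted ribonuclease, read 23.7, 39.6, 68.1, 128.5 and 50.2 in F344 and 409.7, 566.1, 140.7, 383.1 and 379.1 in BUF/N (-2.70, SE 0.63, adjusted p 0.00337), where BUF/N 3 lay close to F344 4. Of 23 solute carriers, 3 were higher and 4 lower (30.4% called, against 23.8% of all tested probe sets). Slc1a3, a glutamate transporter, was higher on all 4 of its probe sets, led by 1.16 (SE 0.20, adjusted p 0.000214) on the brightest, and Slc16a7, a monocarboxylate transporter, was higher at 1.26 (SE 0.29, adjusted p 0.00252). Slc29a1, a nucleoside transporter, was lower at -0.51 (SE 0.15, adjusted p 0.0145). Hs6st1, a heparan sulfate sulfotransferase, did not pass at -0.29 (SE 0.18, adjusted p 0.247), nor did Msx1, a homeobox factor, at -0.60 (SE 0.25, adjusted p 0.0844).

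**Figure D5:**
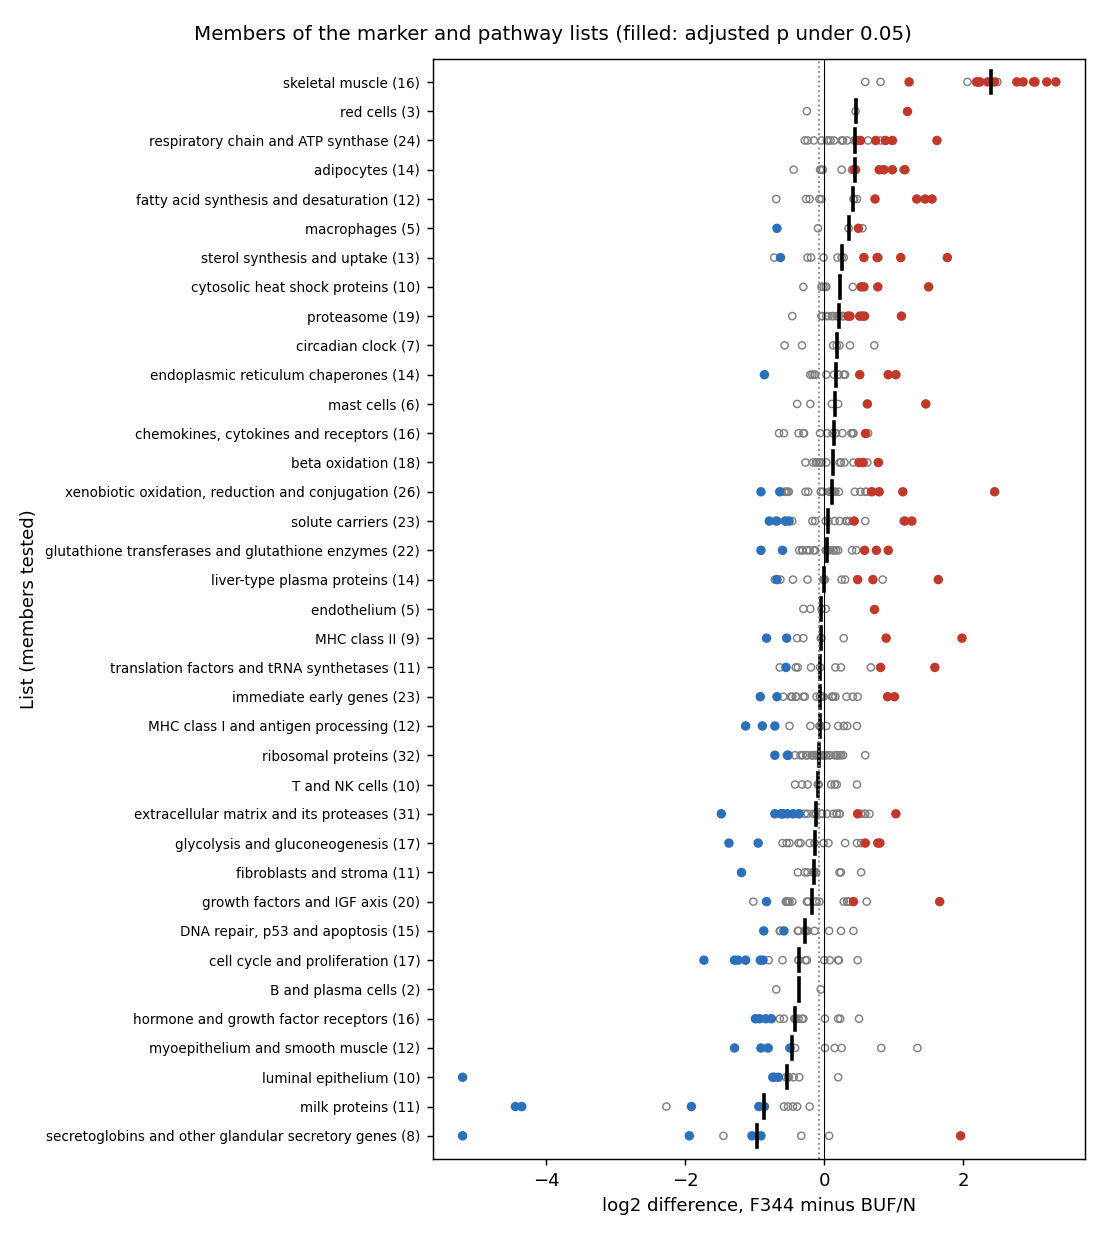
Log2 difference (F344 minus BUF/N) of every tested member of the 37 marker and pathway lists, ordered by the list median (black bar). Filled points are called (red higher in F344, blue lower), open points are not, and the dotted line is the median of all tested probe sets, -0.08. Skeletal muscle lies highest with a median of 2.40, and milk protein and glandular secretory genes lie lowest.

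Genes read by several probe sets did not always give 1 direction. Of 500 called probe sets whose gene had another tested probe set, 240 shared their direction with another call of the gene, 17 opposed another call and 243 were the gene's sole call. The opposed calls came from 7 genes: RT1-Ba, RT1-Bb, Hspb1, Nap1l1, Ndufb8, Pfkfb1 and Slc25a11. For Slc25a11, the mitochondrial oxoglutarate carrier, the brighter probe set gave -0.79 (SE 0.17, adjusted p 0.00127) and the dimmer 0.41 (SE 0.14, adjusted p 0.0328). For Pfkfb1, the liver regulator of fructose 2,6-bisphosphate, they gave 0.77 (SE 0.23, adjusted p 0.0168) and -0.89 (SE 0.29, adjusted p 0.0294).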

How the data were processed

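Total RNA of normal mammary gland was hybridised to Affymetrix rat arrays, and per the labels the authors processed the scans with Affymetrix Microarray Suite 5.0. The deposited values are linear signal intensities, 1 per probe set and array, scaled by the authors to a common trimmed mean. Groups were taken from the array titles. Signals under the 25th percentile (18.3) were raised to it, and log2 was taken. Probe sets with at least 5 of the 30 single-sample arrays above the median (78.4) were tested, without control probe sets, in 1 limma fit (version 3.58.1, R 4.3.3; 6 groups of 5, variance trend) with Benjamini-Hochberg adjustment over 5039 probe sets. The fit was tested on simulated data. Adjusted p-values in the text are from this fit.

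Symbols came from the platform table, updated by gene ID through RefSeq (GRCr8). Of the 8799 probe sets, 7006 had 1 symbol, 308 several and 1426 none, with 59 controls, and genes were named from those with 1 symbol. Named genes were up to 12 per direction with the largest called differences without overlap, up to 4 of each of 26 gene lists and 11 marker lists by adjusted p (brightest probe set), and 33 set in advance, of which Esr1 and Cdkn1a were too dim to test. Ccnb1, Top2a, Cox8b, Cel, Scnn1g and other list members outside this rule were chosen after their values were seen. Members and lists were chosen with earlier results of these data known, so the share of a list that passed is a description and no test of it. Alternatives covered the floor, filter, scaling, replicate block, arrays fitted, weights, variance trend and each array left out.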

Additional observations from a re-analysis of the deposited data

Results flagged for a closer look

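Of 362 groups of 5 signals of named probe sets, 25 (6.91%) had 1 array set apart from the other 4 by Dixon's criterion, where chance gives about 1 in 20. The criterion was applied to signals raised to the floor. For Tcap, Eef1a2 and Apoc3 in BUF/N the other 4 signals were all under the floor, so any value above it was set apart. The chance rate does not hold for such groups. BUF/N 3 was the array set apart in 6 of them. It was low for Pik3r1 (387.0, the others 584.6 to 688.0), Rnase1 (140.7, the others 379.1 to 566.1), Cd4, a T helper cell marker (136.4, the others 241.2 to 266.6), Klf4 (259.7, the others 521.0 to 580.9) and Hspb1 (625.5, the others 905.6 to 985.0). It was high for Ccnd1 (1565.0, the others 849.4 to 1013.9).

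BUF/N 2 was set apart in 4. It was high for Tcap, a muscle protein (53.4, the others 7.5 to 13.2), Eef1a2, a translation factor of muscle (42.3, the others 7.4 to 14.9), and Fos (790.3, the others 532.4 to 596.4), and low for Slc29a1 (280.4, the others 340.7 to 354.0). BUF/N 5 was high for Apoc3 (27.0, the others 6.9 to 9.8) and low for Csf2rb, a cytokine receptor chain (233.7, the others 279.2 to 293.1). BUF/N 1 was low for Foxq1 (99.0, the others 131.9 to 146.0).

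F344 3 was high in 4: Mia (183.2, the others 81.0 to 98.4), Cdc20 (105.6, the others 54.6 to 63.7), Cdk1 (75.4, the others 35.5 to 43.0) and Eif4e (412.4, the others 273.1 to 298.0). F344 4 was low for Hk2 (69.5, the others 146.5 to 181.0) and Pfkl (21.0, the others 141.2 to 198.0) and high for Lyz2, lysozyme (3289.8, the others 2389.1 to 2452.6). F344 1 was high for Dhcr7 (577.3, the others 369.2 to 415.8) and Rps24 (428.2, the others 282.4 to 317.9) and low for Ugt2b, a glucuronosyltransferase (165.6, the others 218.4 to 235.2). F344 2 was high for Igf1 (2112.3, the others 1694.9 to 1766.6) and low for Acadvl (221.2, the others 250.7 to 260.1).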

How the results depend on the processing

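The count of 1197 calls was 1171 to 1234 with another floor or an offset, 1102 without the filter, 1063 with a filter of 15 arrays, 1127 after quantile normalization and 1129 after median centring. It rose to 1976 when only the 10 arrays compared were fitted and to 1722 without F1 2, F1 3, ACI 2 and ACI 5, which are outside the comparison. The latter fit shared 100% of the 1197 calls. With array weights the count was 2062, and these weights also gave 1034 calls for F344 and 1346 for BUF/N against the mean of Cop, ACI and WF. Leaving out 1 array at a time gave 699 (without BUF/N 3) to 1078 calls, and for those other comparisons 195 (without F344 5; 256 without F344 2) to 407 and 436 (without BUF/N 3) to 705. Of the 1197 calls, 57.5% were shared without BUF/N 3 and 63.1% without F344 5.

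Of 182 named probe sets, 133 were called, 70 of these kept their call under all 22 alternatives, 11 kept it under the 21 that could be run for them (they fell below the filter of 15 arrays), and 29 of the rest passed under at least 1. Among these 29, Msx1 (adjusted p 0.0142) and Krt18 (adjusted p 0.0269) passed when only the 10 arrays were fitted. Ghr passed without F1 2, F1 3, ACI 2 and ACI 5 (adjusted p 0.0488). Without BUF/N 3, 42 of the 133 calls ended, without F344 5, 37 did, and without the filter, 24 did. Direction reversed for 3 that were not called. Pecam1, at -0.04, was 0.01 after quantile normalization, 0.03 after centring and -0.12 to 0.02 with an array left out. Cd74, at -0.05, was 0.01 after centring and with array weights and -0.15 to 0.07 with an array left out. Ephx2, at -0.05, was 0.02 after centring and -0.19 to 0.08 with an array left out. The cause was not tested.

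The replicate numbers did not pair the samples: deviations of same-numbered arrays correlated at -0.133 to 0.07, and 0 of 5 correlated best with their own number. With the replicate block in a fit of the 10 arrays the count was 1727. Arrays carry no read depth, and 5 per strain limits the precision.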
